A study of Mus musculus with 12 samples.

Results

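Activin subunits, the activin antagonist follistatin, and the genes of the growth hormone and insulin-like growth factor (IGF) axis were followed through 12 mouse livers. The 10 genes were Inhba, Inhbc, Inhbe, Fst, Ghr, Igf1, Igfals, Igfbp1, Igfbp2 and Igfbp4, out of 18193 genes that a probe set of the array names alone. All probe sets annotated to exactly 1 of these genes were taken, which gave 22 of the 45101 probe sets. The genes were chosen by name with earlier results of these arrays known, and which signals or changes they were selected on is not recorded, so the values of all 4 groups count as used. Every comparison below is therefore a description of the chosen genes. Its p-value places a gene among all genes tested and is no independent evidence.

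The mice were male C57BL/6J animals of 9 weeks. Livers were collected 6 h after a single gavage, and each liver was hybridised to 1 Affymetrix array. In the CKO mice an Albumin-Cre transgene, which is active in hepatocytes, removed the floxed Keap1 allele over a null allele, written Albumin-Cre:Keap1(flox/-), and the null allele was in all their cells. The mice labelled WT were the genetic control Alb-Cre:Keap1(flox/+), so they carried the Cre transgene and a floxed allele as well, and their hepatocytes kept a single intact allele. The 4 groups of 3 mice were CKO given CDDO-Im at 30 µmol/kg, CKO given vehicle, WT given CDDO-Im at the same dose, and WT given vehicle. CDDO-Im is a synthetic oleanane triterpenoid that releases the transcription factor Nrf2 from its inhibitor Keap1. The vehicle held 10% DMSO and 10% Cremophor-EL in PBS.

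Activins are dimers of inhibin beta subunits that signal through receptor kinases to Smad2 and Smad3. Inhba encodes the subunit of activin A, while Inhbc and Inhbe encode the liver-enriched subunits of activins C and E, and follistatin binds and neutralises activin A. Growth hormone acts on the hepatocyte through its receptor, Jak2 and Stat5 and drives transcription of Igf1 and of Igfals, whose product holds IGF-I in a long-lived complex in the blood. The IGF binding proteins control how much IGF-I is free, and Igfbp1 among them is strongly repressed by insulin through FOXO1.

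Signals are on the log2 scale, as the authors computed them with GCRMA, and a difference of 1 is a 2-fold difference. Where a gene had several probe sets, the one with the highest mean over the arrays stood for the gene, and signals of different genes or probe sets were not set against each other. Genes were compared with limma in a single model over the 12 arrays, p-values were adjusted by the Benjamini-Hochberg method over 8338 genes, and a gene is called changed where the adjusted p is under 0.05. Of the 10 genes, 9 were tested and were above the filter on all 12 arrays, with a lowest value of 6.28. The probe set 1450746_at of Keap1 read 2.74 to 3.31 in the 6 CKO livers and 7.92 to 8.89 in the 6 WT livers. The other probe set of Keap1, 1450747_at, read 6.15 to 6.51 in CKO and 6.58 to 8.08 in WT livers, which did not overlap by a narrow gap. Both probe sets thus separated the livers by their genotype labels, 1450746_at by a wide gap. Which of them lies in the deleted region is not given in the sources. Nqo1, a standard Nrf2 target, read 10.74 to 11.16 in CKO livers under both treatments, 9.56 to 9.86 in WT livers given CDDO-Im and 5.18 to 6.96 in WT livers given vehicle. Of 10 hepatocyte markers all lay between 10.3 and 16.1 on every array. In RNA from whole liver, fewer cells of a type and less RNA per cell cannot be told apart.

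The bases before the RefSeq start sites were searched for 4 classical response elements. Windows of 250 bases were read from the RefSeq promoter table of build GRCm38.p6, which held 13 windows for 9 of the 10 genes. Each window was searched on both strands for the antioxidant response element core TGACNNNGC, the STAT5 core TTCNNNGAA, the insulin response element CAAAACA and the amino acid response element TGATGNAA. The windows of Igfbp1, Inhbe and Inhba are shown because these are the genes that differed between CDDO-Im and vehicle livers, and an Igfals window because Igfals is a growth hormone target, with each match in capitals.
Igfbp1, chr11:7197537-7197786, + strand: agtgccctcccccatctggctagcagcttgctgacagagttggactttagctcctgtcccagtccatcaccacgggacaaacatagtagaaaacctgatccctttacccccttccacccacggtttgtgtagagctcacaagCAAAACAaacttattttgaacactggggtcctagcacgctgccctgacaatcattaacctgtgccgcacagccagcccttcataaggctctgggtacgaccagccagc
Inhbe, chr10:127351849-127352098, - strand: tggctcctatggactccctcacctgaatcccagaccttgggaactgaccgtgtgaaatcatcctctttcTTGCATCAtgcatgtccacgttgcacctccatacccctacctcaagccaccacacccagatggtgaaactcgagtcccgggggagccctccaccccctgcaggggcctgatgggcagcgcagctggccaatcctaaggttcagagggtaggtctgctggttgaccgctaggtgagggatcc
Inhba, chr13:16011601-16011850, + strand: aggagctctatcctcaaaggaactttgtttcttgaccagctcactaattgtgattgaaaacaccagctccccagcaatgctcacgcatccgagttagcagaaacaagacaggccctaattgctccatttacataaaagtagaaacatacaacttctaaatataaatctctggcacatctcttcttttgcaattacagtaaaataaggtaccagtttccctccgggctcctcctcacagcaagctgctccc
Igfals, chr17:24877981-24878230, + strand: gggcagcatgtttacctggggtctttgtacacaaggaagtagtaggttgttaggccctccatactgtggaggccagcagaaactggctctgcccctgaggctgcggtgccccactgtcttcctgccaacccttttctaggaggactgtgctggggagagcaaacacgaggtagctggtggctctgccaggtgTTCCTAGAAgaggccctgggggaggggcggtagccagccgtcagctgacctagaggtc

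The Igfbp1 window held the insulin response element 108 to 102 bases before the start. That motif was in 1 of the 13 windows and in 5.56% of the 32851 promoters of the table. The Inhbe window held the amino acid response element on the opposite strand at 181 to 174 bases before the start. That motif was in 1 of the 13 windows and in 3.45% of all promoters. The Igfals window held the STAT5 core at 58 to 50 bases before the start, and another window of Igfals, chr17:24877594-24877843 on the + strand, held it at 236 to 228 bases. That core was in 2 of the 13 windows and in 7.02% of all promoters. The remaining Igfals window and the window of Igf1, also a growth hormone target, held no STAT5 core. The antioxidant response element core was in 0 of the 13 windows and in 10.2% of all promoters, and the Inhba window held none of the 4 motifs. No window held more than a single match, so no matches overlapped. A match is a description of the letters in these windows.

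Transcripts of 2 activin subunits were lower in WT livers given CDDO-Im than in WT livers given vehicle. Inhba and Inhbe fell, while the third subunit, Inhbc, and the IGF axis genes did not pass the test in that comparison. The Inhba signal was 6.63, 6.81 and 6.61 in WT livers given CDDO-Im, against 8.56, 10.03 and 9.81 in WT livers given vehicle. The treated livers lay close together and below every vehicle liver. The change of Inhba was -2.79 ± 0.59 (SE), a 6.89-fold difference, with a limma adjusted p of 0.0327.

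Inhbe, the subunit of activin E, read 6.85, 7.40 and 6.86 in WT livers given CDDO-Im and 8.51, 9.69 and 8.73 in WT livers given vehicle. The groups did not overlap, and Inhbe fell by 1.94 ± 0.41 (SE), a 3.85-fold difference, with a limma adjusted p of 0.0297. Inhbc read 11.15, 11.41 and 10.82 under CDDO-Im and 11.36, 11.78 and 11.76 under vehicle in WT livers. These groups overlapped, and the change of Inhbc was -0.51 (95% interval -1.03 to 0.02, limma adjusted p = 0.275). Of the 9 genes tested 2 were called lower and 0 higher, where 3.65% of all genes were called in either direction, 1.76% lower and 1.88% higher. The treated livers lay wholly below the vehicle livers for Inhba, Inhbe and Ghr, 3 of the 9 genes, and did so for 13.1% of all genes. They lay wholly above for Igfbp1 and Igfbp4, 2 of the 9, and for 10.1% of all genes.

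Both calls for the activin subunits were close to the threshold. Inhba had a limma adjusted p of 0.0721, 0.0748 or 0.104 without WT CDDO-Im replicate 2, 3 or 4, of 0.0975 or 0.0915 without WT vehicle replicate 2 or 3, and of 0.0519 without CKO CDDO-Im replicate 3. Inhbe had a limma adjusted p of 0.0738, 0.0541 or 0.105 without WT CDDO-Im replicate 2, 3 or 4, and of 0.0869 or 0.0602 without WT vehicle replicate 2 or 3. The change itself stayed between -3.24 and -2.50 for Inhba and between -2.18 and -1.59 for Inhbe in all of these fits with 1 liver left out. WT vehicle replicate 2, the highest WT vehicle liver for both subunits, was also the highest of the 12 livers in the mean log2 signal of cholangiocyte markers, 4.55 against 3.54 to 3.74 in the other livers, and of stellate cell markers, 6.78 against 5.69 to 6.16. Of the 5 cholangiocyte markers only Epcam was tested, and it read 7.28 in that liver and 7.28 to 7.39 in the others. The higher cholangiocyte mean thus came from markers below the filter. Without WT vehicle replicate 2 the change was -2.50 for Inhba and -1.59 for Inhbe.

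**Figure D1:**
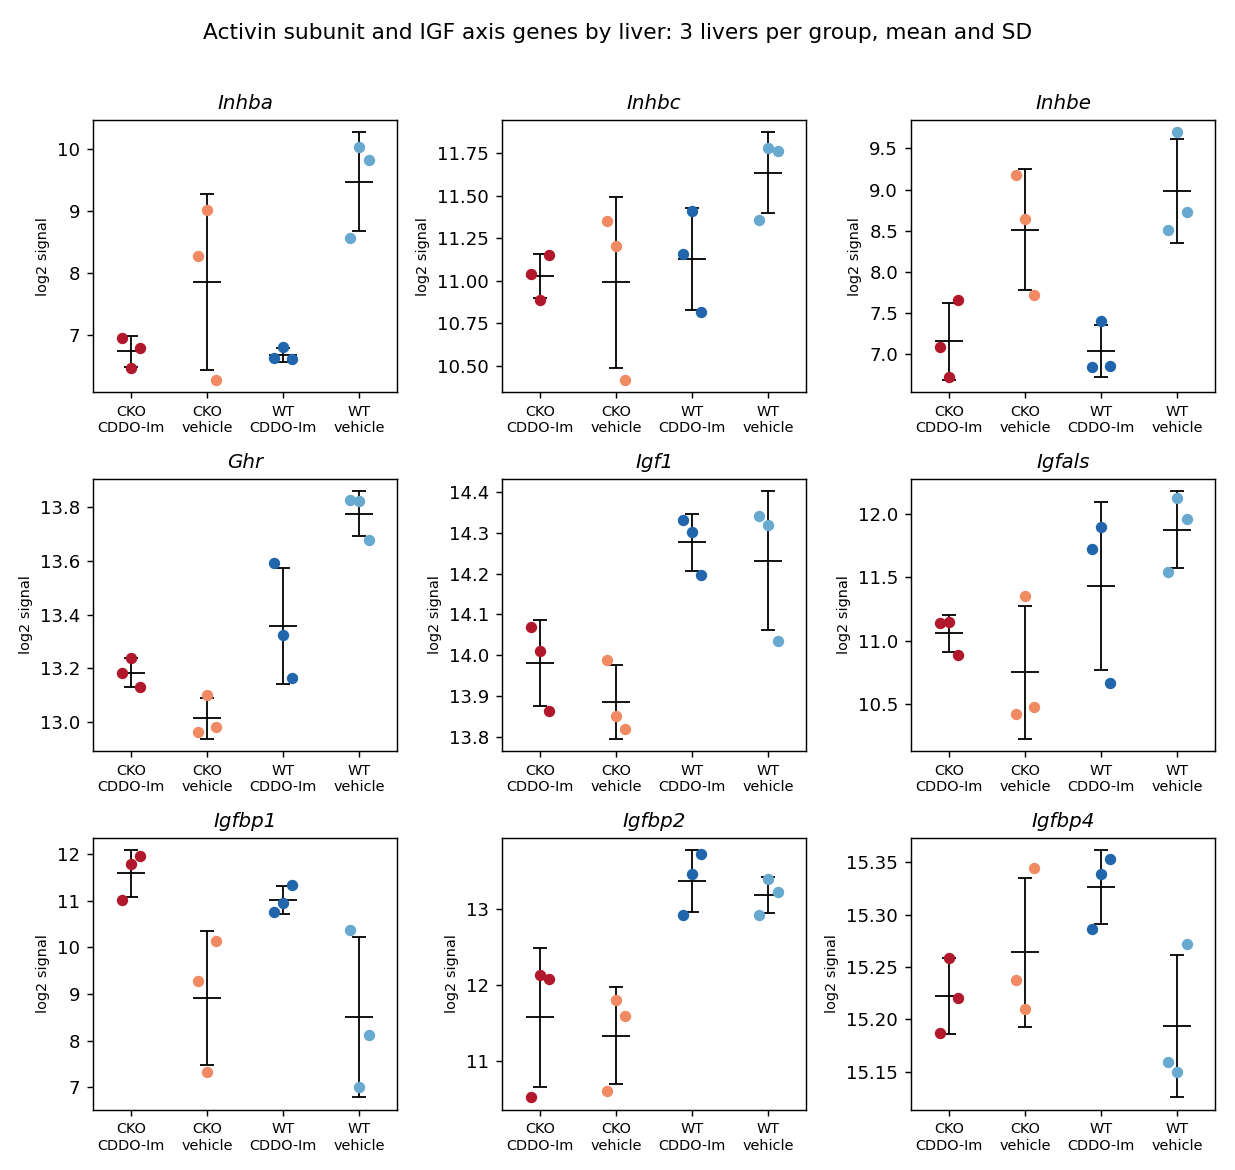
Log2 signal (vertical axis) of 9 genes in each of 12 livers (points) by group (horizontal axis), with the group mean and SD as bars, 3 livers a group; the vertical scale differs between panels. Inhba and Inhbe are low in both CDDO-Im groups, Igfbp1 is high in both, and Igfbp2 is low in both CKO groups.

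In CKO livers the same subunits were similarly low under CDDO-Im, but the vehicle livers differed widely among themselves. Inhba read 6.95, 6.46 and 6.79 in CKO livers given CDDO-Im, against 8.26, 9.01 and 6.28 in CKO livers given vehicle. The last of the vehicle livers, CKO vehicle replicate 5, lay below all treated livers, so the groups overlapped. The change of Inhba was -1.11 (95% interval -2.43 to 0.20, limma adjusted p = 0.593). Inhbe read 7.09, 6.72 and 7.65 in CKO livers given CDDO-Im and 9.18, 8.64 and 7.72 in CKO livers given vehicle. Its groups did not overlap, by a narrow gap, and the change was -1.36 (95% interval -2.26 to -0.45, limma adjusted p = 0.420).

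CKO vehicle replicate 5 also had the lowest Inhbc signal of all 12 livers, 10.42, where the other CKO vehicle livers had 11.35 and 11.20. In CKO livers given CDDO-Im Inhbc read 11.04, 10.89 and 11.15, and its change against CKO vehicle was 0.03 (95% interval -0.49 to 0.56, limma adjusted p = 0.980). No gene at all was called between CKO livers given CDDO-Im and CKO livers given vehicle, 0 of 8338 or 0%, with the lowest limma adjusted p at 0.225 and 790 genes at an unadjusted p under 0.05. Treated livers lay wholly above vehicle livers for Igfbp1 and Ghr, 2 of the 9 genes, and for 5.18% of all genes. They lay wholly below for Inhbe, 1 of the 9, and for 9.40% of all genes.

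The response of the activin subunits to CDDO-Im did not differ detectably between the genotypes. The change in CKO livers minus that in WT livers was 1.67 ± 0.84 (SE) for Inhba (limma adjusted p = 0.539), 0.59 ± 0.57 for Inhbe (0.761) and 0.54 ± 0.34 for Inhbc (0.623). Of the 9 genes tested 0 were called in this interaction, at 1 unadjusted p under 0.05, and 0.276% of all genes were called. Averaged over the genotypes, a contrast added after the data were seen, Inhba changed by -1.95 ± 0.42 (SE) with a limma adjusted p of 0.0423. Inhbe changed by -1.65 ± 0.29 (SE), a 3.14-fold difference, with a limma adjusted p of 0.0162, and all 6 livers given CDDO-Im lay below all 6 given vehicle. Without WT CDDO-Im replicate 4 the averaged Inhbe contrast had a limma adjusted p of 0.0518.

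Igfbp1, the insulin-repressed binding protein, was higher in every liver given CDDO-Im than in every liver given vehicle. It read 11.02, 11.79 and 11.96 in CKO livers given CDDO-Im, against 9.27, 7.32 and 10.14 in CKO livers given vehicle. In WT livers it read 10.76, 10.96 and 11.33 under CDDO-Im and 10.37, 7.01 and 8.11 under vehicle. The treated livers lay closer together than the vehicle livers of either genotype.

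The change of Igfbp1 was 2.68 (95% interval 0.83 to 4.53, limma adjusted p = 0.425) in CKO livers and 2.52 (95% interval 0.67 to 4.37, limma adjusted p = 0.128) in WT livers. Neither passed the test. Averaged over the genotypes Igfbp1 rose by 2.60 ± 0.59 (SE), a 6.06-fold difference, with a limma adjusted p of 0.0498. In that averaged contrast 3 of the 9 genes were called, Igfbp1 higher and Inhba and Inhbe lower, where 2.46% of all genes were called, 1.20% higher and 1.26% lower. A complete separation of the 6 treated from the 6 vehicle livers, as for Igfbp1 and Inhbe, was seen upward in 0.480% and downward in 1.04% of all genes.

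The averaged calls of Igfbp1 and Inhba depended on single livers. The adjusted p stayed under 0.05 without WT vehicle replicate 1 (limma adjusted p = 0.0112 for Igfbp1 and 0.0259 for Inhba) or without CKO vehicle replicate 5 (limma adjusted p = 0.0374 for Igfbp1 and 0.00440 for Inhba). Leaving out any of the other 10 livers gave limma adjusted p-values of 0.0696 to 0.114 for Igfbp1 and 0.0638 to 0.1001 for Inhba. These are CKO CDDO-Im replicates 2, 3 and 4, CKO vehicle replicates 3 and 4, WT CDDO-Im replicates 2, 3 and 4, and WT vehicle replicates 2 and 3. In WT livers alone Igfbp1 passed the test without WT vehicle replicate 1, with a change of 3.46 and a limma adjusted p of 0.0351.

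Within each vehicle group, as noticed after the values were seen, the liver with the most Igfbp1 had the least Inhba and Inhbe. In CKO vehicle that liver was replicate 5, with Igfbp1 at 10.14, Inhba at 6.28 and Inhbe at 7.72. In WT vehicle it was replicate 1, with Igfbp1 at 10.37, Inhba at 8.56 and Inhbe at 8.51. The same livers had the highest signal of their group for Pck1, the gluconeogenic enzyme that insulin represses through FOXO1.

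Pck1 read 10.29, 11.004 and 12.66 in CKO vehicle replicates 3, 4 and 5, and 13.18, 11.81 and 11.72 in WT vehicle replicates 1, 2 and 3. Under CDDO-Im Pck1 lay between 12.88 and 13.38 in CKO livers and between 13.06 and 13.36 in WT livers. Averaged over the genotypes its change was 1.39 ± 0.38 (SE), with a limma adjusted p of 0.0802. G6pc, another gluconeogenic enzyme that insulin represses, had the order of Pck1 among WT vehicle livers but not among CKO vehicle livers. It read 12.91, 14.24 and 12.19 in CKO vehicle replicates 3, 4 and 5, where replicate 5 was the lowest, and 14.60, 14.48 and 13.47 in WT vehicle replicates 1, 2 and 3, where replicate 1 was the highest. Under CDDO-Im G6pc lay between 13.76 and 14.16 in CKO livers and between 13.07 and 13.49 in WT livers. Its change against vehicle was 0.83 in CKO livers (limma adjusted p = 0.599) and -0.92 in WT livers (limma adjusted p = 0.293). The part of feeding state or insulin in these values was not tested.

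**Figure D2:**
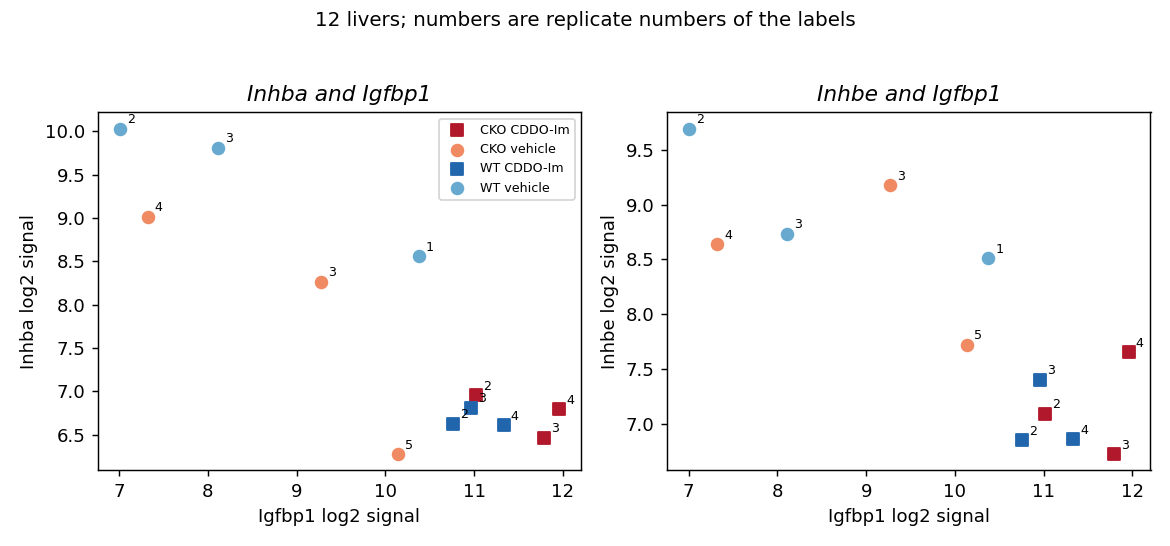
Log2 signal of Igfbp1 (horizontal axis) against Inhba (left, vertical axis) and Inhbe (right, vertical axis) in 12 livers, squares for CDDO-Im and circles for vehicle, numbered by replicate. The 6 CDDO-Im livers lie together at high Igfbp1 and low Inhba and Inhbe, and CKO vehicle replicate 5 is the vehicle liver nearest to them.

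The growth hormone receptor and Igfbp2 were lower in vehicle livers with Keap1 deleted. In CKO livers given vehicle Ghr and Igfbp2 were called lower than in WT livers given vehicle. When every probe set was tested, 3 of 4 probe sets of Igf1 were called lower. These read the same gene and are not separate support, and the probe set that stands for Igf1 was not called. Of the 9 genes tested 2 were called lower and 0 higher, where 6.51% of all genes were called, 3.26% lower and 3.25% higher. The median change of the 9 genes was -0.64, against -0.01 for all genes, and 5 of the 9 had all CKO livers below all WT livers, which 13.3% of all genes did.

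Ghr, the receptor through which growth hormone reaches the hepatocyte, read 12.96, 13.10 and 12.98 in CKO livers and 13.83, 13.82 and 13.68 in WT livers, all given vehicle. The groups were far apart relative to their spread. Ghr fell by 0.76 ± 0.10 (SE), a 1.70-fold difference, with a limma adjusted p of 0.00264, and without WT vehicle replicate 2 by 0.74 with a limma adjusted p of 0.0115. The other probe sets of Ghr changed by -0.54 (1451501_a_at, limma adjusted p = 0.0594) and -0.74 (1451871_a_at, 0.0443) when every probe set was tested.

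Under CDDO-Im the genotypes were closer in Ghr. It read 13.18, 13.24 and 13.13 in CKO livers given CDDO-Im and 13.59, 13.32 and 13.16 in WT livers given CDDO-Im, and the groups overlapped. The change was -0.18 (95% interval -0.41 to 0.06, limma adjusted p = 0.437). All treated WT livers lay below all vehicle WT livers, by -0.42 ± 0.10 (SE, limma adjusted p = 0.0566), and all treated CKO livers lay above all vehicle CKO livers, by 0.17 ± 0.10 (SE, limma adjusted p = 0.642). The difference between those drug effects, 0.59 ± 0.15 (SE), had a limma adjusted p of 0.188. Without WT CDDO-Im replicate 2, the highest of its group, the drug effect in WT livers was -0.53 with a limma adjusted p of 0.0168. These values are from the brightest probe set, 1417962_s_at. With every probe set tested, the drug effect in WT livers was -0.12 for 1451501_a_at (limma adjusted p = 0.709) and -0.41 for 1451871_a_at (0.273). On both, treated and vehicle WT livers overlapped.

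Igf1, the hepatic growth factor under growth hormone control, was lower in CKO than in WT livers on each of its 4 probe sets. The brightest, 1452014_a_at, read 13.99, 13.85 and 13.82 in CKO livers and 14.34, 14.32 and 14.03 in WT livers given vehicle. Its change was -0.35 ± 0.10 (SE), and it missed the threshold with a limma adjusted p of 0.0669. Probe set 1434413_at read 11.80, 12.15 and 12.44 in CKO and 13.43, 13.51 and 13.15 in WT livers given vehicle.

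With every probe set tested, the limma adjusted p was 0.00529 for 1434413_at (a fall of 1.23), 0.0158 for 1437401_at (a fall of 1.31) and 0.00798 for 1419519_at (a fall of 0.62). The size of the Igf1 change thus depended on the probe set, and the one that stands for the gene showed the smallest. Without WT vehicle replicate 3 its limma adjusted p was 0.0239. With CDDO-Im, the 4 probe sets of Igf1 were lower in CKO than in WT livers by 0.30 to 0.58, and none passed the test, with 1419519_at at the lowest limma adjusted p of 0.0714.

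**Figure D3:**
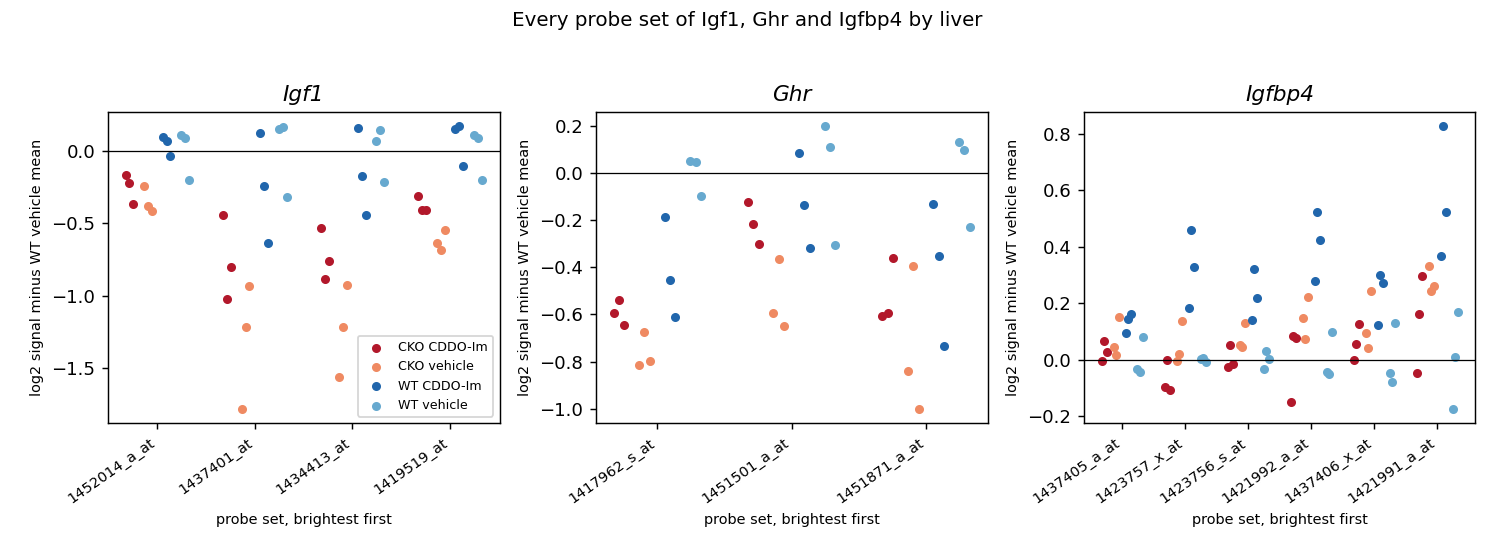
Log2 signal minus the mean of the WT vehicle livers (vertical axis) for every probe set (horizontal axis) of Igf1, Ghr and Igfbp4, 1 point per liver, 3 livers a group. On Igf1 probe sets 1434413_at and 1419519_at all 6 CKO livers lie below all 6 WT livers, and on 4 of the 6 Igfbp4 probe sets all WT livers given CDDO-Im lie above all other livers, the exceptions being 1437405_a_at and 1437406_x_at.

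Igfals, the subunit that stabilises circulating IGF-I, read 10.42, 11.35 and 10.48 in CKO livers and 11.54, 12.13 and 11.96 in WT livers given vehicle. The groups did not overlap, and the change was -1.13 (95% interval -1.86 to -0.39, limma adjusted p = 0.0718). CKO vehicle replicate 4 was the highest of its group, and without it the change was -1.43 with a limma adjusted p of 0.0344. Under CDDO-Im Igfals read 11.14, 11.15 and 10.89 in CKO and 11.73, 11.90 and 10.67 in WT livers. These overlapped through WT CDDO-Im replicate 4, without which the vehicle comparison had a limma adjusted p of 0.0305.

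Igfbp2, a binding protein that hepatocytes secrete, was lower in all 6 CKO livers than in all 6 WT livers. It read 10.61, 11.80 and 11.59 in CKO livers given vehicle, against 12.93, 13.39 and 13.23 in WT livers given vehicle. With CDDO-Im it read 10.52, 12.13 and 12.08 in CKO and 12.93, 13.46 and 13.73 in WT livers. CKO vehicle replicate 3 and CKO CDDO-Im replicate 2 were the lowest of the 12.

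Igfbp2 fell by 1.85 ± 0.44 (SE) in CKO against WT livers given vehicle, a 3.61-fold difference, with a limma adjusted p of 0.0336. The change under CDDO-Im was nearly as large, -1.80 ± 0.44 (SE), with a limma adjusted p of 0.0778. In that comparison 0 of the 9 genes were called at 2 unadjusted p-values under 0.05, and 1.54% of all genes were called. CKO livers lay wholly below WT livers for Igf1, Igfbp2 and Igfbp4, 3 of the 9 genes, and for 12.2% of all genes. The call in vehicle livers was lost without any single one of these 6: CKO vehicle replicate 3 (limma adjusted p = 0.120) or 5 (0.0662), WT CDDO-Im replicate 3 (0.0513), and WT vehicle replicate 1 (0.0699), 2 (0.0952) or 3 (0.0735).

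Averaged over the treatments, a contrast added after the data were seen, Igfbp2 was lower in CKO livers by 1.82 ± 0.31 (SE), a 3.54-fold difference, with a limma adjusted p of 0.00608. Ghr fell by 0.47 ± 0.07 (SE, limma adjusted p = 0.00418) and Igf1 by 0.32 ± 0.07 (SE, limma adjusted p = 0.0176). These 3 of the 9 genes were called, all lower, where 10.6% of all genes were called, 5.47% lower and 5.09% higher. All 3 calls held with each of the 12 livers left out in turn. In a fit that blocks on the replicate numbers, Ghr and Igf1 were not called (limma adjusted p = 0.0677 and 0.120). With every probe set tested, the other probe sets of Ghr were not called. They changed by -0.31 (1451501_a_at, limma adjusted p = 0.0871) and -0.43 (1451871_a_at, 0.0707). All 6 CKO livers lay below all 6 WT livers for Igfbp2 alone among the 9, an arrangement that 2.48% of all genes showed. Igfals changed by -0.75 ± 0.23 (SE, limma adjusted p = 0.0707), and passed without CKO vehicle replicate 4 (limma adjusted p = 0.0341) or WT CDDO-Im replicate 4 (0.0154).

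The activin subunits and Igfbp1 were not called between the genotypes. In vehicle livers Inhba changed by -1.62 (95% interval -2.93 to -0.30, limma adjusted p = 0.138), Inhbc by -0.64 (-1.17 to -0.12, adjusted p = 0.140) and Inhbe by -0.47 (-1.37 to 0.43, adjusted p = 0.543). Igfbp1 changed by 0.41 (95% interval -1.44 to 2.26, limma adjusted p = 0.817). The vehicle livers were widely spread in Inhba and Igfbp1. Inhba had an SD of 1.41 in CKO and 0.79 in WT livers given vehicle, and Igfbp1 an SD of 1.44 in CKO and 1.72 in WT. Under CDDO-Im the SD of Inhba was 0.25 in CKO and 0.11 in WT livers.

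**Figure D4:**
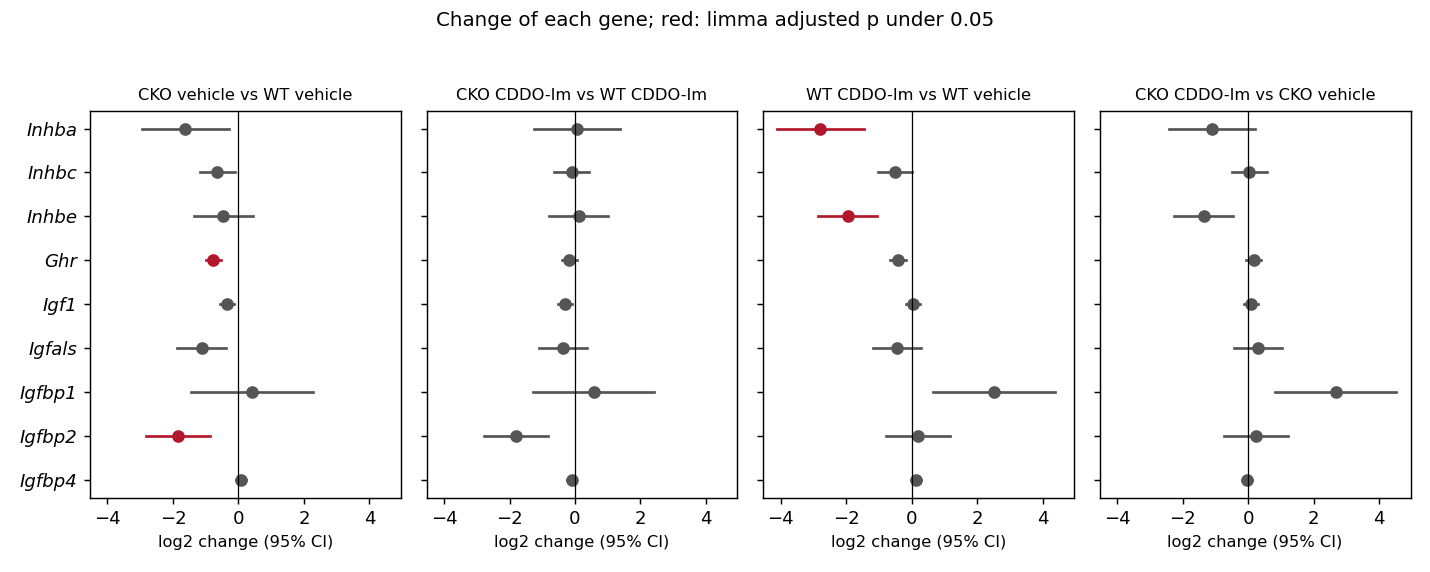
Change of 9 genes (rows) as a log2 difference with its 95% confidence interval (horizontal axis) in 4 comparisons, red where the limma adjusted p is under 0.05. Ghr and Igfbp2 are red for CKO vehicle vs WT vehicle, and Inhba and Inhbe for WT CDDO-Im vs WT vehicle.

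Igfbp4, an IGF-inhibiting binding protein that the protease Pappa cleaves, had 6 probe sets. The brightest, 1437405_a_at, read 15.15 to 15.35 over all 12 livers and was called in none of the comparisons. With every probe set tested, 1421992_a_at and 1421991_a_at were higher in WT livers given CDDO-Im than in WT livers given vehicle, by 0.41 (limma adjusted p = 0.0407) and 0.57 (limma adjusted p = 0.0434). Probe set 1423757_x_at was lower in CKO than in WT livers given CDDO-Im, by -0.39 (limma adjusted p = 0.0481).

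In these calls the WT livers given CDDO-Im lay apart. On 1421992_a_at they read 13.98, 14.23 and 14.13, against 13.66, 13.65 and 13.80 in WT livers given vehicle, while CKO livers read 13.55, 13.79 and 13.78 under CDDO-Im and 13.85, 13.78 and 13.92 under vehicle. All 6 probe sets were higher in WT livers given CDDO-Im than in WT livers given vehicle, by 0.13 to 0.57 on the log2 scale. Some of these probe sets may share probe sequences, and the sources used here do not say which.

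Fst could not be followed. Its probe set 1421365_at was at the lowest value of the table on 12 arrays and 1434458_at on 10, with 2.96 in WT CDDO-Im replicate 2 and 2.26 in WT vehicle replicate 1. A second Inhba probe set, 1458291_at, was at the lowest value on all 12 arrays, so every Inhba value above is from 1422053_at.

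Of 24 further ligands, receptors, Smads and regulators of the activin pathway, 15 were tested, and 0 were called in each of the 7 contrasts. Of all genes 0% to 10.6% were called in these contrasts. With so few genes, 0 calls cannot be told from these shares. The median change in WT livers given CDDO-Im against vehicle was 0.01 for these 15, against -0.02 for all genes. The receptor gene Acvr1b had the largest change of the list in vehicle livers, 0.72 in CKO against WT, with a limma adjusted p of 0.146. Inhbb, which encodes the activin B subunit, had group means of 4.02 to 5.58.

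In the IGF list of receptors, binding proteins and proteases 7 of 17 genes were tested. None was called in the 4 single comparisons or the interaction, where 0% to 6.51% of all genes were called. Igfbp3, the main carrier of IGF-I in the ternary complex with Igfals, was higher in CKO than in WT livers averaged over treatments by 0.63 ± 0.15 (SE), with a limma adjusted p of 0.0265. Igfbp3 was the only 1 of the 7 called there, and 5.09% of all genes were called higher. It read 8.60, 7.98 and 7.84 in CKO CDDO-Im, 7.91, 7.86 and 8.22 in CKO vehicle, 7.20, 7.58 and 7.76 in WT CDDO-Im and 7.10, 7.58 and 7.39 in WT vehicle livers. Of 14 tested genes of growth hormone signalling, Jak2 and Stat5b among the list, 0 were called in each of the 7 contrasts. Of all genes 0% to 10.6% were called, and 0 of so few genes cannot be told from these shares.

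Several genes whose sex-biased liver expression depends on growth hormone fell with the deletion in vehicle livers. Of 12 tested, 5 were called lower and 0 higher in CKO against WT livers given vehicle, where 3.26% of all genes were called lower. Hsd3b5, a male-biased steroid dehydrogenase, fell by 4.71 ± 0.89 (SE), with a limma adjusted p of 0.0121. It read 8.86, 6.27 and 9.90 in CKO and 13.22, 13.47 and 12.47 in WT livers given vehicle. Elovl3, a fatty acid elongase, fell by 3.17 ± 0.58 (SE, limma adjusted p = 0.0104). Cyp2b9, another gene of this list, went the other way without being called. It read 2.49, 11.83 and 4.66 in CKO livers given vehicle and 7.09, 2.47 and 5.10 in CKO livers given CDDO-Im. In all WT livers Cyp2b9 read 2.32 to 2.40, near the lowest value of the table. In CKO against WT livers given CDDO-Im 0 of the 12 were called, where 1.54% of all genes were. Their median change was -0.13, against -0.91 in vehicle livers. Hsd3b5 and Elovl3 still lay wholly lower in CKO livers there. Hsd3b5 read 7.49, 10.36 and 9.51 in CKO and 11.03, 11.67 and 11.62 in WT livers given CDDO-Im. Elovl3 read 9.07, 9.70 and 10.01 in CKO and 10.51, 10.54 and 11.88 in WT livers given CDDO-Im. Averaged over treatments 5 of the 12 were called lower and 0 higher, where 5.47% of all genes were called lower. The interaction was called for 0 of the 12 and for 0.276% of all genes. With CDDO-Im in WT livers 1 of the 12 was called, Nudt7, a peroxisomal coenzyme A hydrolase, which fell by 1.22 ± 0.22 (SE, limma adjusted p = 0.0163). In that comparison 1.76% of all genes were called lower.

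Among 13 tested insulin and FOXO1 responsive genes, 1 was called in CKO against WT livers given vehicle, where 6.51% of all genes were called. Akt2, a kinase of the insulin pathway, fell by 0.37 ± 0.06 (SE, limma adjusted p = 0.00873). In WT livers given CDDO-Im against vehicle 2 of the 13 were called, both lower, where 1.76% of all genes were called lower. Srebf1, the insulin-induced regulator of lipid synthesis, fell by 1.97 ± 0.40 (SE, limma adjusted p = 0.0259), and Pik3r1, a regulatory subunit of phosphoinositide kinase, by 0.88 ± 0.17 (SE, limma adjusted p = 0.0220).

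Of 12 tested genes of the ATF4 amino acid stress response, Ddit4, an inhibitor of mTORC1 signalling, was called higher in CKO against WT livers given vehicle, by 3.06 ± 0.63 (SE, limma adjusted p = 0.0181), where 3.25% of all genes were called higher. In WT livers given CDDO-Im 2 of the 12 were called higher, where 1.88% of all genes were. These were Ddit4 by 2.78 ± 0.63 (SE, limma adjusted p = 0.0397) and the transcription factor Cebpb by 1.04 ± 0.23 (SE, limma adjusted p = 0.0370). Among 14 tested Nrf2 targets, 11 were called higher in CKO than in WT livers given vehicle, where 3.25% of all genes were. In WT livers given CDDO-Im against vehicle 13 were called higher, where 1.88% of all genes were. In CKO against WT livers given CDDO-Im 2 were called higher and 2 lower, where 1.54% of all genes were called. In the interaction 8 were called lower, where 0.252% of all genes were. The comparisons of CKO vehicle and of WT CDDO-Im livers were each against WT vehicle livers, and both share those 3 livers. The same holds wherever CKO vehicle and WT CDDO-Im livers are each set against WT vehicle livers.

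Single markers of endothelial, macrophage and stellate cells were called beside these results. Of 10 tested endothelial markers, Lyve1, a sinusoidal hyaluronan receptor, was called higher in CKO against WT livers given vehicle, by 2.24 (limma adjusted p = 0.0176), and in WT livers given CDDO-Im against vehicle, by 2.57 (limma adjusted p = 0.0150). Marco, a macrophage scavenger receptor, was the only one of 10 tested macrophage markers called, higher in CKO livers given vehicle, by 2.304 (limma adjusted p = 0.0151). Reln, a stellate cell marker, fell by 0.51 in CKO against WT livers given vehicle (limma adjusted p = 0.0348), 1 of 10 tested. In that comparison 3.25% of all genes were called higher and 3.26% lower. In WT livers given CDDO-Im against vehicle 1.88% of all genes were called higher.

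The mean log2 signal over the 12 endothelial markers ranged from 7.32 to 7.67 in CKO CDDO-Im, 7.31 to 7.39 in CKO vehicle, 7.10 to 7.41 in WT CDDO-Im and 7.16 to 7.31 in WT vehicle livers. That over the 12 macrophage markers ranged from 8.37 to 8.92 in CKO CDDO-Im, 8.37 to 8.99 in CKO vehicle, 8.31 to 8.49 in WT CDDO-Im and 7.82 to 8.88 in WT vehicle livers. In neither list was a marker at the lowest value on all arrays. Over the 14 stellate cell markers, 2 of them at the lowest value on all arrays, the mean ranged from 5.77 to 6.06 in CKO CDDO-Im, 5.69 to 5.97 in CKO vehicle, 5.76 to 6.16 in WT CDDO-Im and 5.92 to 6.78 in WT vehicle livers. The ranges of the groups overlapped in these 3 lists, except that endothelial means of CKO CDDO-Im livers lay above those of WT vehicle livers. Of 5 cholangiocyte, 9 lymphocyte and 7 neutrophil markers, 1, 4 and 2 were at the lowest value on all arrays. In each list 1 marker was tested, and none was called in any of the 7 contrasts, where 0% to 10.6% of all genes were. The mean of the neutrophil markers ranged from 3.52 to 4.03 in CKO CDDO-Im, 3.73 to 4.72 in CKO vehicle, 3.32 to 4.197 in WT CDDO-Im and 3.28 to 3.86 in WT vehicle livers, and that of the lymphocyte markers lay between 2.96 and 3.01 in all livers. CKO vehicle replicate 3, the highest in the neutrophil mean, also had a low Igfbp2 signal. Lcn2, the only neutrophil marker tested, read 13.35 in that liver and 6.22 to 9.95 in the others. The other neutrophil markers did not pass the filter, and 1 gene cannot stand for a cell type. CKO CDDO-Im replicate 2, the lowest in Igfbp2, had a neutrophil mean of 4.03. WT CDDO-Im replicate 2, second in that mean at 4.197, read 12.93 for Igfbp2. The part of these cells in the results above was not tested.

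Among the 10 hepatocyte markers, Tdo2, a tryptophan-degrading enzyme, was called higher in CKO against WT livers given vehicle by 0.34 (limma adjusted p = 0.0182) and in WT livers given CDDO-Im against vehicle by 0.34 (limma adjusted p = 0.0294). Of all genes 3.25% were called higher in CKO against WT livers given vehicle, and 1.88% in WT livers given CDDO-Im against vehicle. No hepatocyte marker was called lower in any of the 7 contrasts, where 0% to 5.47% of all genes were called lower.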

How the data were processed

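Total RNA of 12 livers, 3 per group, was measured on 1 Affymetrix array each. The deposited table holds log2 values, for which the submitters' processing notes name GCRMA 2.12.1 and R 2.7.0 but no settings. GCRMA puts probe sets without signal near a common lowest value, 2.22 here, where 19201 to 19624 of 45101 probe sets per array lay within 0.01 of it. Folds on the linear scale are restricted to genes whose compared group means reach 5. Array medians were 2.32 to 2.34, 0 pairs of arrays were identical, and the lowest replicate correlation was 0.996. The number of arrays limits the precision, and p-values measure the spread between these mice.

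Probe sets were named from GEO's platform annotation, with 34945 naming 1 gene and 932 several. Each gene was represented by its brightest probe set, and 8338 genes with at least 3 arrays above 5 were tested with limma 3.58.1 (R 4.3.3) on 4 group means over all arrays, two-sided, with Benjamini-Hochberg adjustment. A second fit took 13298 probe sets one by one. The steps were tested on simulated data. The genes, the 7 pathway lists, the 7 marker lists, the naming rule and the alternatives were chosen with earlier results of these data known. From each list and comparison at most 2 called genes in each direction are named, or the gene of largest change where none was called. Pck1 falls under this rule. 2 contrasts averaged over a factor were added after the data were seen. Replicate numbers are those of the labels. Over 12 pairs of same-numbered livers in different groups, deviations from the group means correlated at -0.17 to 0.15, 3 above 0.1. The labels do not say whether the numbers pair the livers, and weak correlations of so few livers cannot decide it. The main fit did not use the numbers.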

Additional observations from a re-analysis of the deposited data

Results flagged for a closer look

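All livers of a genotype moved opposite ways in a few cases, none of which passed the test of the difference. For Ghr, on its brightest probe set 1417962_s_at, CDDO-Im livers lay wholly above vehicle livers in CKO mice and wholly below them in WT mice. The drug effect in CKO minus that in WT was 0.59 on the log2 scale (limma adjusted p = 0.188). On the other Ghr probe sets, 1451501_a_at and 1451871_a_at, treated and vehicle livers of WT mice overlapped. On 1451871_a_at those of CKO mice overlapped too. On 2 of the 6 probe sets of Igfbp4 the CKO livers lay wholly below the WT livers under CDDO-Im and wholly above them under vehicle. The difference of the drug effects was -0.30 for 1423756_s_at (limma adjusted p = 0.314) and -0.71 for 1421991_a_at (limma adjusted p = 0.199), with every probe set tested.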

How the results depend on the processing

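With 3 livers a group, the calls of single genes near the threshold moved with the filter, the samples in the fit and single livers. Without a filter on low values 232 genes and 1 of the 9 members were called for CKO vehicle vs WT vehicle, 29 genes for CKO CDDO-Im vs WT CDDO-Im, 124 genes and 0 members for WT CDDO-Im vs WT vehicle, 1 gene for CKO CDDO-Im vs CKO vehicle, 7 for the interaction, 413 for CKO vs WT averaged, and 67 genes and 0 members for CDDO-Im vs vehicle averaged. With only the groups compared in the fit the counts were 223 genes and 1 member, 56 genes, and 85 genes and 1 member for the first 3 of these. A fit of 13298 probe sets one by one called 828, 195 and 526 probe sets for the first 3 of these. It called 42 for the interaction and 322 for CDDO-Im vs vehicle averaged. Whether replicate numbers pair the livers is not known. In a fit that blocks on them, Ghr changed by -0.62 for CKO vehicle vs WT vehicle (limma adjusted p = 0.129). Igfbp2 changed by -2.68 there (limma adjusted p = 0.0806). With a replicate block 55 genes and 0 members, 42 genes, 114 genes, 2 genes, 3 genes, and 316 genes and 1 member were called for CKO vehicle vs WT vehicle, CKO CDDO-Im vs WT CDDO-Im, WT CDDO-Im vs WT vehicle, CKO CDDO-Im vs CKO vehicle, the interaction and CKO vs WT averaged.

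Leaving out 1 liver gave 275 to 538 genes and 1 to 3 members for CKO vehicle vs WT vehicle, 32 to 138 genes for CKO CDDO-Im vs WT CDDO-Im, 100 to 318 genes and 0 to 3 members for WT CDDO-Im vs WT vehicle, 0 to 1 gene for CKO CDDO-Im vs CKO vehicle, 2 to 30 for the interaction, 569 to 807 genes and 3 to 4 members for CKO vs WT averaged, and 97 to 258 genes and 0 to 3 members for CDDO-Im vs vehicle averaged. The cause was not tested.

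Of 1359 recomputed changes of single members, 33 had the other sign, all of changes that were not called. The mean of all probe sets gave -0.071 for Igf1 under CDDO-Im in WT livers. With a replicate block the changes were -0.15 (Igf1, interaction), -0.23 (Igfbp2, CDDO-Im in WT), 0.022 (Igfbp4, CDDO-Im in CKO), -0.016 (Igfbp4, CKO vs WT, vehicle) and -0.27 (Inhbc, CDDO-Im in CKO). Igfbp4 averaged over treatments was 0.011 after quantile normalization and 0.00076 after centring. Leaving out 1 liver gave, for CKO vs WT in vehicle livers, -0.33 to 1.35 (Igfbp1). For CKO vs WT under CDDO-Im it gave -0.054 to 0.19 (Inhba), -0.26 to 0.041 (Inhbc) and -0.13 to 0.34 (Inhbe). For CDDO-Im it gave -0.053 to 0.09996 (Igf1, WT), -0.25 to 0.22 (Inhbc, CKO), -0.12 to 0.77 (Igfbp2, CKO) and -0.19 to 0.12 (Igfals, averaged). For the interaction it gave -0.0050 to 0.15 (Igf1), -0.78 to 0.90 (Igfbp1) and -0.31 to 0.58 (Igfbp2), and for CKO vs WT averaged -0.34 to 0.024 (Inhbe) and -0.0370 to 0.0027 (Igfbp4).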
